A study of Mus musculus with 8 samples.

Results

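The outer segment of a photoreceptor cell is a modified cilium filled with stacked membrane discs, and 10 mouse genes that build the discs and the matrix around them are described here. They are Prph2, Rom1, Prom1, Cdhr1, Rp1, Rp1l1, Tulp1, Abca4, Impg1 and Impg2, chosen by name. They were 10 of 14840 genes with a symbol that were tested, and 15 probes stood for them. All 15 probes were well above background on every array, so that no member was lost to the filter on dim probes.

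Gene expression was measured on single-color Agilent mouse microarrays in photoreceptor cells of mice at postnatal day 8, in a C57BL/6 strain. There were 4 heterozygous (Lpcat1 HZ) and 4 knockout (Lpcat1 KO) arrays. The paper calls the knockout global, that is, in the whole animal. Per the methods, the line was crossed so that no animal used had a Crb1 mutation of the line's original substrain on both alleles. The cells were taken from dissociated retina with an antibody to CD73, a surface protein of young rods that Nt5e encodes. Lpcat1 encodes an enzyme that makes phosphatidylcholine, and the HZ arrays, which also carry the deleted allele, served as the controls. All 8 arrays shared a slide on which slide row 1 held KO and row 2 held HZ. Genotype and row on the slide therefore cannot be told apart, while the replicate number is the slide column. Nothing in the labels says whether arrays came from separate animals, and the p-values then measure the spread between these samples.

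Discs form at the base of the outer segment, just above the connecting cilium. Peripherin 2 (Prph2) and Rom1 are tetraspanins that hold the curved rim of the disc, Prom1 and Cdhr1 act where new discs open and close, and Rp1 and Rp1l1 are doublecortin proteins along the axoneme. Tulp1 serves protein transport to the outer segment, Abca4 is a lipid transporter of the disc rim, and Impg1 and Impg2 are proteoglycans of the matrix between the photoreceptors and the retinal pigment epithelium (RPE).

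Values are the log2 signal minus the 75th percentile of the array. Lpcat1 itself, the target gene, was at -0.81, -0.95, -1.02 and -1.17 on HZ replicates 1 to 4 and at -0.97, -1.16, -1.11 and -0.85 on KO replicates 1 to 4. The groups overlapped (difference KO minus HZ -0.037, standard error 0.11, limma adjusted p = 0.930), so this probe did not separate the labels. The probe's place with respect to the deleted part is unknown here, and groups are named by their labels.

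The sample label was checked against markers. All 8 rod markers were tested and Nrl had the brightest probe, at 7.30, 7.15, 7.22 and 6.94 on the HZ arrays and 7.28, 7.03, 7.12 and 7.12 on the KO arrays. Nt5e, the gene of the sort, was at 4.27, 4.30, 4.36 and 4.39 on the HZ arrays and 4.05, 4.27, 4.25 and 4.29 on the KO arrays. The defining rod genes were thus measured on every array.

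The 10 genes differed little between the groups. By the brightest probe of each gene, 6 were lower and 4 higher on the KO arrays, with a median log2 difference of -0.078 against 0.0023 over all 34281 tested probes. At an adjusted p under 0.05, limma called 0 of the 10 genes and 0 probes in all (0.00%), and the smallest adjusted p of any probe was 0.157. At an unadjusted p under 0.05, 2802 probes passed, 1195 lower (3.49%) and 1607 higher (4.69%), and 0 of the 10 genes were among them. The share of lower probes among those, 42.6%, was 51.8% with the percentile taken over detected probes, 54.3% without a filter on dim probes, 51.0% with replicate number blocked and 32.9% with the methods' t-test. The methods' t-test called 3 probes after Benjamini-Hochberg adjustment. Of the 15 probes, 1 passed an unadjusted p of 0.05, lower on the KO arrays, a dimmer probe of Rp1 described below. The number of arrays limits the precision, and a difference that missed the threshold is not shown to be absent.

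**Figure D1:**
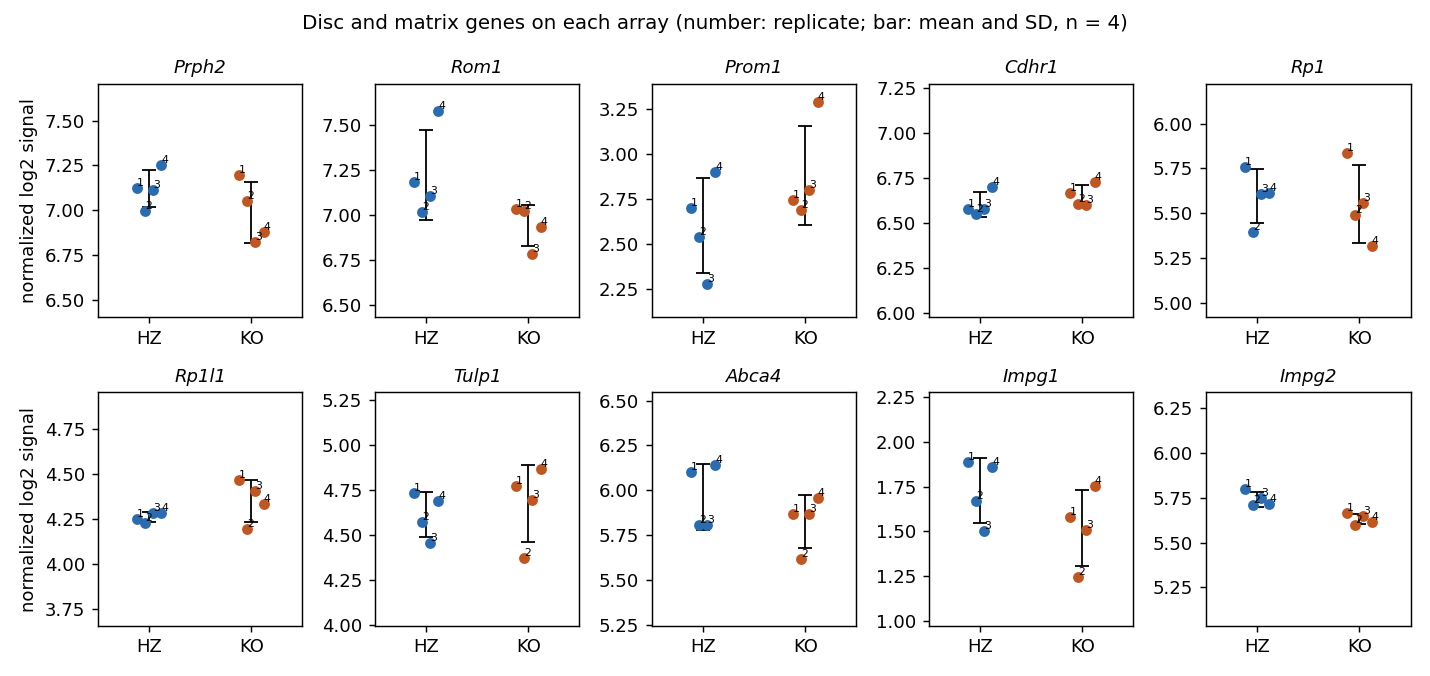
Normalized log2 signal of the 10 genes, by the brightest probe of each, on the 4 HZ arrays (blue) and 4 KO arrays (orange). Numbers are replicate numbers, bars are the mean and SD, and every panel spans the same log2 range. The groups overlap in every panel but that of Impg2.

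The disc rim was represented by both tetraspanins. Rom1 was at 7.19, 7.02, 7.11 and 7.58 on HZ replicates 1 to 4 and at 7.03, 7.02, 6.78 and 6.93 on KO replicates 1 to 4. HZ replicate 4 was the highest and KO replicate 3 the lowest, and the groups overlapped. The difference of -0.28 (standard error 0.14, 95% interval -0.59 to 0.032, limma adjusted p = 0.638) was the most negative of the 10 genes, and 3 of 4 pairs of the same replicate number were lower in KO. Without HZ replicate 4, the array with the most uneven spots, it was -0.16, and with normexp background correction -0.54 (limma adjusted p = 0.167). Prph2 was at 7.13, 6.999, 7.12 and 7.25 on the HZ arrays and at 7.20, 7.05, 6.83 and 6.88 on the KO arrays, which overlapped. Its difference was -0.13 (standard error 0.11, limma adjusted p = 0.747), and between -0.20 and -0.080 with 1 array left out.

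Of the genes of disc formation, Prom1 was at 2.70, 2.54, 2.27 and 2.90 on the HZ arrays and at 2.74, 2.69, 2.80 and 3.29 on the KO arrays. The groups overlapped, and KO was higher in 4 of 4 pairs. The difference was 0.28 (standard error 0.18, limma adjusted p = 0.702), the most positive of the 10, and it was -0.056 with normexp background correction. A dimmer Prom1 probe differed by 0.021 (standard error 0.12) and was lower in 3 of 4 pairs. Cdhr1, a photoreceptor cadherin, was at 6.58, 6.55, 6.58 and 6.70 on the HZ arrays and at 6.67, 6.61, 6.60 and 6.73 on the KO arrays. Its difference of 0.047 (standard error 0.078) was within the spread, though KO was higher in 4 of 4 pairs. With 1 array left out it lay between 0.022 and 0.081.

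Rp1 was measured by a pair of probes that did not run together. The brighter was at 5.76, 5.40, 5.61 and 5.61 on the HZ arrays and at 5.84, 5.49, 5.56 and 5.32 on the KO arrays. These overlapped and differed by -0.045 (standard error 0.13, limma adjusted p = 0.929), with the sign turned when HZ replicate 1 or KO replicate 4 was left out. The dimmer probe carries the accession of another RefSeq transcript of Rp1, and where either probe lies in the transcripts was not analysed here. It was at -2.19, -2.92, -2.09 and -2.13 on the HZ arrays and at -3.92, -3.75, -3.04 and -4.54 on the KO arrays. Every KO array lay below every HZ array, with HZ replicate 2 and KO replicate 3 nearest to each other. The difference was -1.48 (standard error 0.32, 95% interval -2.22 to -0.74), 2.78-fold lower, in 4 of 4 pairs.

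The dimmer Rp1 probe did not pass the adjustment over all probes (limma adjusted p = 0.363, unadjusted p = 0.00168, rank 156 of 34281). It passed the looser thresholds of the methods, a fold over 1.5 and an adjusted p under 0.5, which 278 probes passed as lower (0.811%). Its signal was between 40.0 and 216 intensity units, and normexp background correction gave a difference of -1.01. Within each array, the brighter minus the dimmer probe was 7.95, 8.32, 7.70 and 7.74 on the HZ arrays and 9.76, 9.24, 8.60 and 9.85 on the KO arrays. The KO minus HZ difference of this contrast was 1.43 (two-sided exact permutation test, p = 0.0286, the smallest that 4 arrays against 4 allow, adjusted p = 0.0857 over 6 probe pairs compared). That test ignores the pairing by replicate number. Permuted within the 4 pairs, the exact p was 0.125, the smallest that 4 pairs allow, so no result could pass 0.05 there. These contrasts were chosen after the values were seen.

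Markers of the RPE, the pigmented layer behind the photoreceptors, were checked beside the dimmer Rp1 probe. Of 13 markers 12 were tested, and all 12 had negative differences, with a median of -1.68, where 49.5% of all tested probes did. At an adjusted p under 0.05, 0 of the 12 passed. At an unadjusted p under 0.05, 10 passed as lower, as did 3.49% of all tested probes. Their summed linear signal, with the 75th percentile of an array as 1, was 42.6, 15.6, 26.9 and 24.1 on the HZ arrays and 14.8, 10.01, 13.0 and 7.88 on the KO arrays. Dct had the brightest probe (difference -1.45) and Lrat was not well above background on enough arrays to be tested. The order within a group was shared in part. HZ replicate 2 and KO replicate 4 were the lowest of their groups for both the sum and the dimmer Rp1 probe, while replicate 1 of each group was highest for the sum and replicate 3 of each group was highest for the probe. The part of the RPE markers in the Rp1 difference was not tested, and in bulk samples fewer cells of a type and less RNA per cell cannot be told apart.

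**Figure D2:**
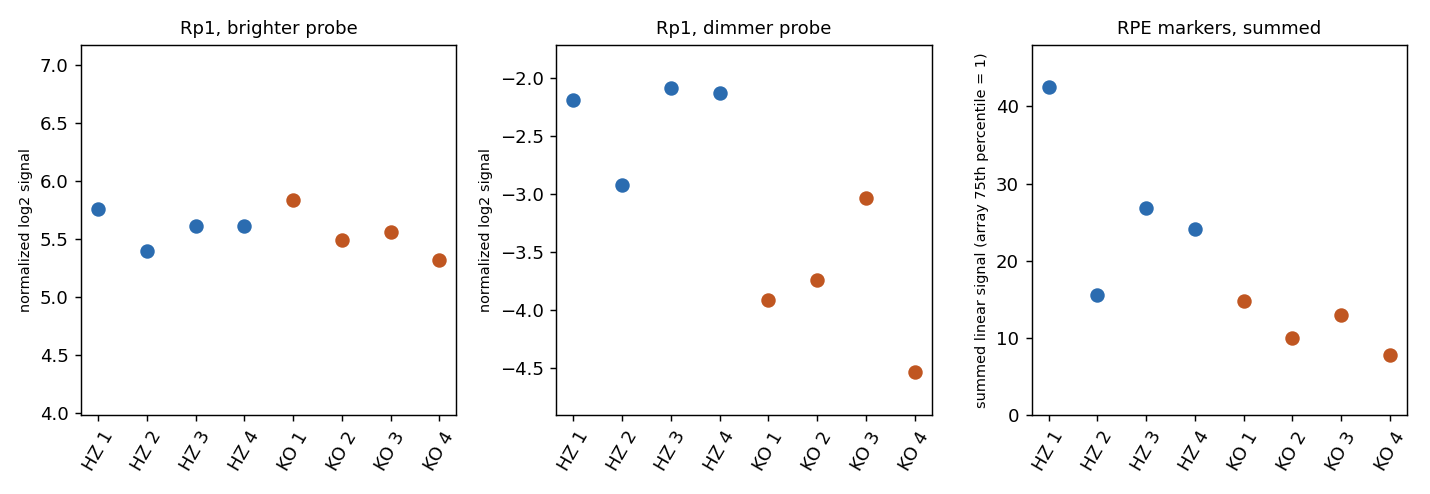
The brighter and the dimmer Rp1 probe (normalized log2 signal, both axes spanning the same range) and the summed linear signal of 12 RPE markers on each array, HZ in blue and KO in orange. The brighter probe overlaps between the groups, while the dimmer probe lies between -2.92 and -2.09 on the HZ arrays and between -4.54 and -3.04 on the KO arrays.

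Genes with the array pattern closest to the dimmer Rp1 probe were sought among 14732 genes measured on all 8 arrays. They were Slc35f3 (Pearson r = 0.995, difference -0.88), Plcb4 (difference -0.24), Ankrd11 (-0.24), Agbl4 (-0.37) and Cldn1 (r = 0.949, difference -1.75). They were picked as the top of all genes, and r is a description. Rp1l1, the other doublecortin member, was at 4.25, 4.23, 4.28 and 4.28 on the HZ arrays and at 4.47, 4.20, 4.41 and 4.34 on the KO arrays. It differed by 0.091 (standard error 0.085), with overlapping groups.

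Tulp1 was at 4.73, 4.57, 4.46 and 4.69 on the HZ arrays and at 4.77, 4.37, 4.69 and 4.87 on the KO arrays. The difference of 0.063 (standard error 0.13) was -0.0080 with quantile normalization. Abca4 was at 6.10, 5.81, 5.81 and 6.14 on the HZ arrays and at 5.87, 5.62, 5.87 and 5.95 on the KO arrays. HZ replicates 1 and 4 were the highest, and the difference was -0.14 (standard error 0.12), or 0.034 with normexp background correction. A dimmer Abca4 probe differed by -0.096 (standard error 0.16), and by between -0.20 and -0.0011 with 1 array left out.

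Of the matrix proteoglycans, Impg2 was measured by 1 probe, at 5.80, 5.71, 5.75 and 5.71 on the HZ arrays and at 5.66, 5.60, 5.65 and 5.62 on the KO arrays. It was the member whose groups did not overlap by its brightest probe, as did 732 of all probes with KO lower (2.14%), while 1439 had KO higher (4.20%). With the dimmer Rp1 probe, this made 2 of 15 member probes with KO lower and 0 with KO higher. The Impg2 difference was small at -0.11 (standard error 0.071, limma adjusted p = 0.703), 1.08-fold lower, in 4 of 4 pairs.

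Impg1 had 3 probes. The brightest was at 1.89, 1.67, 1.502 and 1.86 on the HZ arrays and at 1.58, 1.24, 1.51 and 1.75 on the KO arrays, a difference of -0.21 (standard error 0.14) that was 0.035 with normexp background correction. The next differed by -0.22 (standard error 0.16), in 4 of 4 pairs, and by between -0.33 and -0.094 with 1 array left out. The dimmest was at 0.43, 0.51, 0.19 and 0.29 on the HZ arrays and 0.46, 0.45, 0.54 and 0.63 on the KO arrays (difference 0.17, standard error 0.099). The brightest minus the dimmest probe was 1.46, 1.16, 1.32 and 1.57 on the HZ arrays and 1.12, 0.80, 0.96 and 1.12 on the KO arrays. Every KO array was below every HZ array (difference -0.38, two-sided exact permutation test, unpaired p = 0.0286, adjusted p = 0.0857 over the 6 probe pairs), in a contrast also chosen after the values were seen. Within the pairs of arrays no result could pass 0.05 (exact p = 0.125). With normexp background correction this contrast was -0.14. Of the 3 probes, 0 passed an unadjusted p of 0.05 for KO against HZ, and no direction is given for Impg1.

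**Figure D3:**
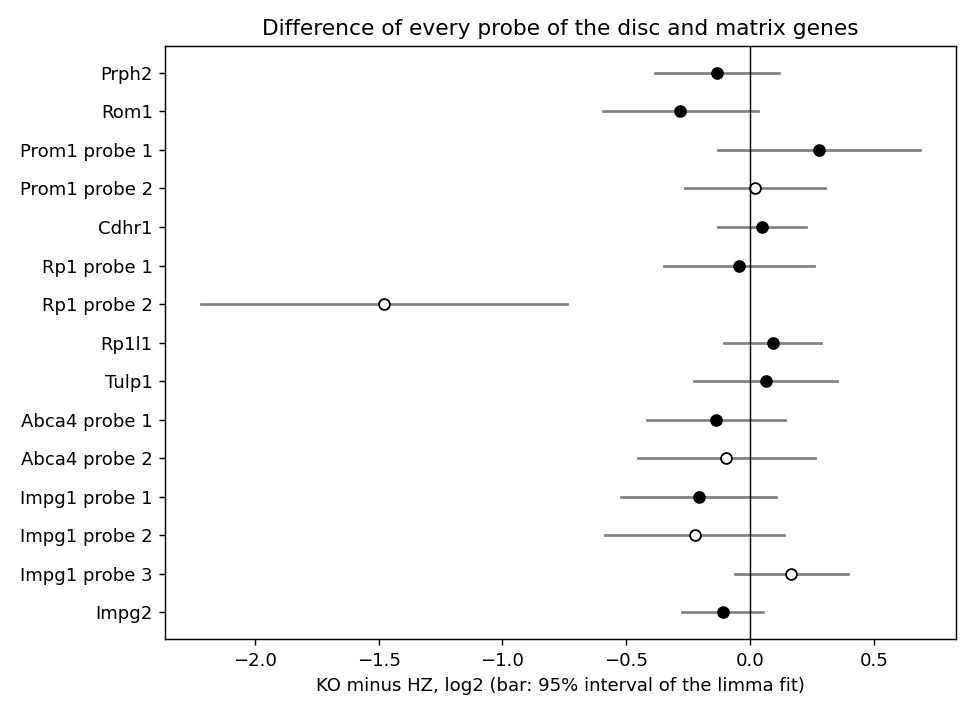
KO minus HZ difference of all 15 probes on the log2 scale, with the 95% interval of the limma fit that pools the spread over probes. Filled points are the brightest probe of a gene and open points its other probes. The interval of the dimmer Rp1 probe, from -2.22 to -0.74, lies apart from 0.

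Across replicate numbers, the values of the 10 genes were compared with each gene's own mean over the 8 arrays. On HZ replicates 1 to 4, 7, 2, 4 and 9 of the 10 genes were above it, and on KO replicates 1 to 4, 6, 0, 3 and 6 were. HZ replicate 4 also stood out for uneven spots, 458 of them where each other array had 2 to 25. Spots so marked were removed, and each member probe, with 1 spot, kept its value on all 4 HZ arrays. The 458 therefore held no spot of a member, and any other part of the uneven spots in the counts was not tested. On KO replicate 2, 5 genes had their lowest value. The mean deviation of the 10 genes was 0.089, -0.075, -0.076 and 0.15 on the HZ arrays and 0.059, -0.13, -0.055 and 0.043 on the KO arrays. These means were positive for replicate numbers 1 and 4 and negative for 2 and 3 in both groups. They are descriptions, and the 10 genes were not compared with other genes in this. In the F test of the replicate number, 0 of the 10 genes and 0 of all probes (0.00%) passed an adjusted p of 0.05, with 4737 probes past an unadjusted 0.05 (13.8%) and 0 of the 10 genes (up to 2 under the alternatives). A dimmer Impg1 probe passed an unadjusted p of 0.05 (F = 5.49, limma adjusted p = 0.359). This test has few degrees of freedom and recovered fewer of the simulated shifts than the comparison of the groups, and none of the smallest, so a count of 0 says little about the numbers.

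**Figure D4:**
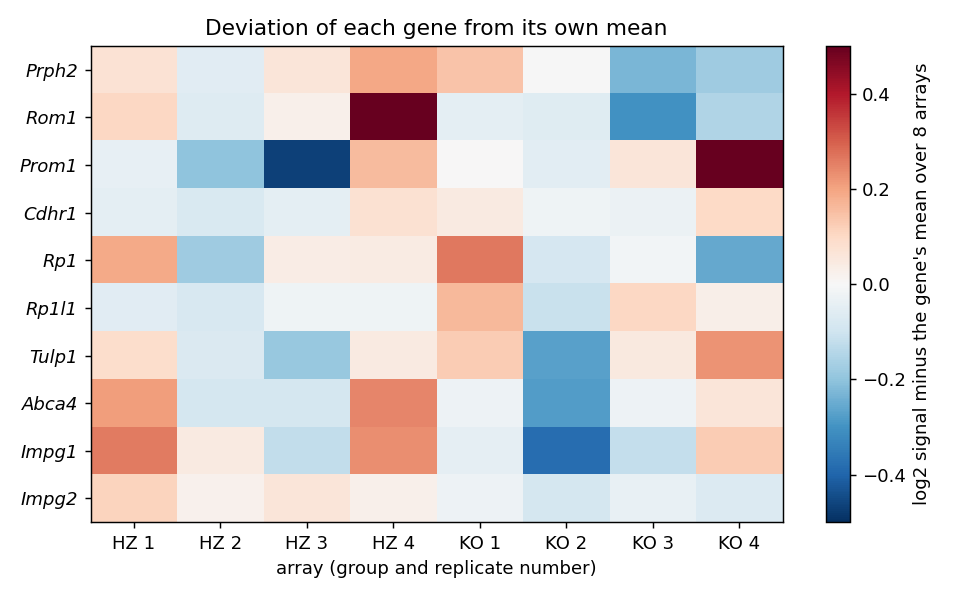
Deviation of each gene from its own mean over 8 arrays on the log2 scale, by the brightest probe, with higher values in red and lower in blue. KO replicate 2 has 0 of 10 genes above the mean and HZ replicate 4 has 9.

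Among the genes with the closest pattern to the mean of the 10, of 14732 over 8 arrays, were Ppcdc (r = 0.980, difference -0.069), Syngr4 (r = 0.958, difference -0.16), Zscan18 and Whrn. These genes are from the top of all genes measured, and r is a description.

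Other disc and outer segment genes were 14 lower and 10 higher of 24 tested (median -0.047). The largest differences were those of Cnga1, a channel subunit of rods (-0.55, standard error 0.26), Crb1 (-0.42, standard error 0.22) and the kinase Mak (0.40, standard error 0.18), with 0 past the adjusted threshold. They were -0.30 without KO replicate 3, -0.26 without KO replicate 2 and 0.23 without HZ replicate 4. Crb1, Gucy2f and Gucy2e had the largest F for the replicate number (10.6, 10.5 and 8.18). Of 19 genes of the connecting cilium, 10 were lower and 9 higher. Ahi1 had the groups apart (4.03, 3.99, 4.15 and 4.26 on the HZ arrays, 3.57, 3.58, 3.69 and 3.78 on the KO arrays, difference -0.45, limma adjusted p = 0.363), while Cep290 differed by -0.34. Kif3a differed by 0.68 (standard error 0.49), with HZ replicate 2 at -0.16 and the other HZ arrays at 1.90 to 2.22, and by 0.12 without that array.

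Of 12 tested matrix genes, 9 were lower and 3 higher (median -0.18). Timp3, an inhibitor of matrix proteases that the RPE also makes, differed by -1.71 (standard error 0.37, limma adjusted p = 0.363), Efemp1 by -1.27 and Bcan by 0.66. Efemp1 was well above background on 3 HZ arrays and 1 KO array. Of 9 tested photoreceptor transcription factors, 5 were lower and 4 higher (median -0.015), led by Neurod1 (-0.24), Nr2e3 (-0.19) and Mef2d (0.17). Neurod1 was at -0.14 without KO replicate 1, and Nr2e3 at -0.079 without HZ replicate 4. Prdm1, Samd7 and Esrrb had the largest F for the replicate number (2.81, 2.02 and 2.01). Of 14 tested paralogues of the 10 genes, 4 were lower and 10 higher (median 0.085), led by Abca1 (0.25), Dcdc2b (0.23) and Cdhr2 (-0.21).

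Markers of rods and of other cells were compared as well. In all of these lists 0 passed an adjusted p of 0.05, and their part in the results was not tested. An unadjusted p of 0.05 was passed by 4 of 12 microglia and 3 of 3 tested red blood cell markers, all higher in KO. It was also passed by 1 of 7 Muller glia markers, lower in KO. Over all tested probes, 4.69% passed as higher and 3.49% as lower. Of the rod, cone, bipolar, amacrine, horizontal, ganglion, vascular and progenitor markers, 0 passed. All 12 microglia markers had positive differences (median 0.75, led by Cx3cr1 at 0.93, C1qa at 0.91 and Aif1 at 0.90), but only 1 of the 12 was higher in all 4 pairs, and in pair 4 Cx3cr1 was at -0.24, C1qa at -0.24 and Aif1 at -0.44. Their summed signal was 3.72, 3.99, 3.47 and 6.64 on the HZ arrays and 8.31, 6.35, 4.81 and 5.17 on the KO arrays. The 3 tested red blood cell genes had positive differences (Hba-a2 at 1.58, Hba-a1 at 1.51 and Hbb-bt at 1.70, the last well above background on 2 HZ arrays and 4 KO arrays), with sums of 0.583, 0.233, 0.205 and 0.233 on the HZ arrays and 2.12, 0.635, 0.314 and 1.12 on the KO arrays. In the RPE list the largest differences were those of Rpe65 (-2.38), Mlana (-2.26) and Krt8 (-2.20), or -1.91, -1.79 and -1.70 without KO replicate 4. The last 2 passed the background limit on 3 of 4 KO arrays only, so their sizes and order are imprecise. Of 8 rod markers 7 were lower (median -0.092, led by Cnga1 at -0.55, Gnat1 at 0.36 and Nr2e3 at -0.19), and the 6 cone markers had positive differences (median 0.15, Arr3 at 0.49, Opn1mw at 0.41 and Opn1sw at 0.17). Of these 6, 5 were lower in 2 of 4 pairs, and the summed cone signal was 13.5, 43.1, 52.2 and 17.1 on the HZ arrays and 24.0, 32.2, 30.1 and 34.2 on the KO arrays. Without KO replicate 4 Opn1mw differed by 0.019, and without HZ replicate 1 Arr3 differed by 0.15. Opn1sw lay between -0.15 and 0.52 with 1 array left out. Of 7 Muller glia markers 5 were lower (Clu by -0.56, Dkk3 by -0.32 and Vim by -0.27), and of 8 bipolar markers 7 (among them Cabp5 by -0.42 and Trpm1 by -0.42). Of 5 tested amacrine, horizontal and ganglion markers 1 was lower (Pou4f1 at -0.80, or -0.39 without KO replicate 4, and lower in 2 of 4 pairs, with Onecut2 at 0.19 and Onecut1 at 0.18). Of 5 vascular markers 2 were lower (Kdr at -0.80, with Cldn5, past the background limit on 3 of 4 HZ arrays, at 1.24 and Rgs5 at 0.72), and of 5 progenitor markers 5 (Ccnd1 at -0.61, Top2a at -0.41 and Mki67 at -0.32). Without HZ replicate 2, Kdr was at -0.29, Top2a at 0.021, Mki67 at -0.00023, Dkk3 at 0.092 and Vim at 0.11, and without HZ replicate 4 Abca1 was at 0.015. With 1 array left out Ccnd1 lay between -1.14 and -0.10, Onecut1 between -0.0038 and 0.32 and Cldn5 between 0.78 and 1.67. Gnat1 was at 0.19 without HZ replicate 3, and Nr2e3 at -0.079 without HZ replicate 4. Rgs5 lay between 0.37 and 1.17 and Cabp5 between -0.69 and -0.22 with 1 array left out. Single arrays also changed other named differences of these lists.

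The promoters of 8 of the 10 genes were matched in RefSeq (GRCm38.p6), as 9 windows of 250 bases before the start of transcription. Rp1 and Rp1l1 had no matched promoter and were not searched. They were searched on both strands for TAATCC, a motif of the photoreceptor homeodomain factor Crx (GGATTA on the other strand). It was held by 1 of the 9, that of Abca4, and by 6.25% of 32851 promoters of the same length. Of the matched promoters 3 are shown, with the motif in capitals. Abca4, which holds it, is at chr3:122044210-122044459 on the plus strand. Rom1, whose difference was the most negative by the brightest probe of each gene, is at chr19:8929357-8929606 on the minus strand. Impg2, whose groups did not overlap by its brightest probe, is at chr16:56204063-56204312 on the plus strand. A missing match says only that these letters are not in this window.
Abca4: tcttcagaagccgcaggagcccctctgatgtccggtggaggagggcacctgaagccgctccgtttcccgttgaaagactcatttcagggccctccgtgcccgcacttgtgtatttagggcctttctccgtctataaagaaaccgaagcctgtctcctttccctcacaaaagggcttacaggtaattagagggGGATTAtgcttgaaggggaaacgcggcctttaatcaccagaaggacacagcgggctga
Rom1: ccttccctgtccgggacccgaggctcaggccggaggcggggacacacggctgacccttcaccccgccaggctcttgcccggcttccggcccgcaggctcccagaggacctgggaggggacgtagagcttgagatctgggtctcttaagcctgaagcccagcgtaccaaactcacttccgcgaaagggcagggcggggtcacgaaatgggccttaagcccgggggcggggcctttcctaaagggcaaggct
Impg2: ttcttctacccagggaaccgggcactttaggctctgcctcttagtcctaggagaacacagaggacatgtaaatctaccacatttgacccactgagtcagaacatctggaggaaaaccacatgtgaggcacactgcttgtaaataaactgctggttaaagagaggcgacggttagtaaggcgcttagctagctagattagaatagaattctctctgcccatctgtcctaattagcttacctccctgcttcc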

How the data were processed

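The authors deposited spot intensity values made with Agilent Feature Extraction 10.7.1.1, per the submitters' processing notes, with the background subtracted, and their own log2 values after a 75 percentile shift and centring on each probe's median over the 8 arrays. Here each log2 intensity was shifted by its array's 75th percentile over 59305 non-control spots. Spots marked as outliers were removed, and repeated spots were averaged. The test took probes with signal well above background on 4 or more arrays and 3 or more values in both groups. Of 56605 probes, 32994 were named through their RefSeq accession (GRCm38.p6, names only). A gene is given by its probe with the highest mean.

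KO was set against HZ by a two-sided moderated test, limma version 3.58.1 (lmFit, eBayes) under R 4.3.3 (data.table version 1.17.8, matplotlib 3.10.9, pandas 2.3.3) and Benjamini-Hochberg adjustment. Both tests were tested on simulated data. The F test of the replicate number calculated correctly but did not recover the smallest simulated shift, which the comparison of KO with HZ recovered for most probes. Larger shifts were added after that was seen, and it recovered part of them. Named are all members, the 3 genes of each further list with the largest difference or F, and the 5 closest patterns. Some genes that this rule takes in are not reported here. The members and lists were chosen with earlier results of these data known, and the closest patterns to the dimmer Rp1 probe after its values were seen, as were the permutation within pairs and the leaving out of arrays for genes of the further lists.

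Deviations from the group means correlated between arrays of the same replicate number with r of 0.303, 0.337, 0.165 and 0.244. Between arrays of different numbers r lay between -0.339 and 0.119. The limit of 0.1 set for pairing was passed in all 4 pairs, but also by the highest r of different numbers. The number is also the slide column, so paired samples and place on the slide cannot be told apart.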

Additional observations from a re-analysis of the deposited data

Results flagged for a closer look

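Among 32 groups of 4 values checked (15 member probes and Lpcat1, in each group), 2 held a sample far from the others, where chance gives about 1.6. On the dimmer Rp1 probe, HZ replicate 2 was at -2.92, below the other HZ arrays at -2.19 to -2.09. On the dimmer Prom1 probe, KO replicate 2 was at 1.04, below the other KO arrays at 1.38 to 1.39. Without HZ replicate 2 the difference of the dimmer Rp1 probe was -1.67.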

How the results depend on the processing

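Of the 10 genes, 0 passed an adjusted p of 0.05 in either test under any alternative run. In the comparison of KO with HZ, the count of genes past an unadjusted p of 0.05 was 1 with normexp background correction, with quantile normalization and with trend and robust eBayes (Rom1 each time), 1 with the methods' t-test (Impg2) and 1 with the mean of a gene's probes (Rp1). Leaving out 1 array gave 0 to 1, with Rom1 passing without HZ replicate 2. Over all probes, 17 passed an adjusted p of 0.05 with normexp background correction, 2 with quantile normalization and 3 each with the methods' t-test and with trend and robust eBayes. In the test of the replicate number, leaving out 1 array gave 0 to 1 probes, with 1 without HZ replicate 1 and 1 without KO replicate 1. There, 2 of the 10 genes passed an unadjusted p of 0.05 with normexp background correction and with trend and robust eBayes, and 1 with quantile normalization, with the other percentile, with the stricter filter and without HZ replicate 4. The median of the 10 genes stayed between -0.13 and -0.011. With the replicate number as a block, 0 genes and 0 probes passed an adjusted p of 0.05, the median was -0.078, and no call of a member changed.

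Signs that changed were all of differences not past the threshold. With normexp background correction Prom1 was at -0.056, Abca4 at 0.034, its dimmer probe at 0.062, Impg1 at 0.035 and the Prom1 probe contrast at -0.11. With quantile normalization Tulp1 was at -0.0080, and with the percentile taken over the probes detected on every array the dimmer Prom1 probe was at -0.010. With 1 array left out, Prom1 lay between 0.14 and 0.38, Abca4 between -0.19 and -0.067, Impg1 between -0.29 and -0.12, Rp1l1 between 0.053 and 0.14, Rp1 between -0.14 and 0.033, Tulp1 between -0.00077 and 0.16, the dimmer Prom1 probe between -0.035 and 0.11, the Abca4 probe contrast between -0.089 and 0.013 and that of the brighter Impg1 probes between -0.021 and 0.050. The cause was not tested. The dimmer Rp1 probe was lower in KO, from -1.73 to -1.01, in each alternative that changes the values or leaves out an array. Those that change only the filter or the test leave its difference as it is. The adjusted p lay between 0.101 and 0.764. The low signal of that probe limits its precision.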
